A study of Homo sapiens with 16 samples.

Results

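Eph receptors and ephrins were followed in 16HBE (16HBE14o-), a cell line of the human bronchial epithelium, after treatment with a sundew preparation. The genes were 9 named members, taken by symbol from the tables of both times: the receptors EPHA1, EPHA2, EPHA4, EPHB2, EPHB3 and EPHB4 and the ligands EFNA1, EFNB1 and EFNB2. They were 9 of the 18632 symbols listed at 3 h and of the 24570 listed at 6 h, and all 9 were found at both times. The treated cells received D. rotundifolia 3×, a dilution of an ethanolic extract of Drosera rotundifolia, and the Ctrl cells received ethanol without the plant, diluted alike. Each of the 4 groups, Ctrl and D. rotundifolia 3× at 3 h and at 6 h, had 4 libraries, 16 in all. All groups shared the line, the low-serum medium and the added ethanol, and the Ctrl wells ran beside the treated wells in the same plates. The cultures of 6 h belonged to another experiment, which had a Ctrl of its own, so levels at 3 h and 6 h differ in experiment as well as in time. All cells came from 1 transformed line grown as a submerged layer, without the other cells of an airway.

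Eph receptors form a family of receptor tyrosine kinases that bind ephrins on the surface of a neighbouring cell. Ephrins of the A class are held in the membrane by a lipid anchor and mainly bind EphA receptors, whereas those of the B class span the membrane and mainly bind EphB receptors. Contact can signal into the receptor's cell (forward) and into the ephrin's cell (reverse), and in epithelia it is known for setting cell adhesion, repulsion and boundaries. EPHA2 is known as a leading Eph receptor of epithelial cells and EFNA1 as its main ligand. EPHA2 bound by ligand is phosphorylated on tyrosine and taken into the cell, while without ligand it can be phosphorylated on a serine by AKT, RSK and PKA kinases, a form linked to migration.

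The promoters of the receptor and the ligand on which the results turn, and of the second EphA receptor, are shown as the 250 bases before the annotated start in RefSeq (GRCh38.p14), read 5′ to 3′ on the strand of the gene. Capitals mark the letters of a cyclic AMP response element (CRE, TGACGTCA) and of a GC box (GGGCGG, or CCGCCC when read on the other strand). The stretches lie at chr1:16156070-16156319 on the minus strand (EPHA2), chr7:143408857-143409106 on the minus strand (EPHA1) and chr1:155127626-155127875 on the plus strand (EFNA1).
EPHA2: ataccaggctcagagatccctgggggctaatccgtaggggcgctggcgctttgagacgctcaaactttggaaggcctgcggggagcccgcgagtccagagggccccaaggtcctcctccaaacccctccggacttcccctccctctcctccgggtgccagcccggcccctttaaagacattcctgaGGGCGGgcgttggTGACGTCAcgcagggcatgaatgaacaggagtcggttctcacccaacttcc
EPHA1: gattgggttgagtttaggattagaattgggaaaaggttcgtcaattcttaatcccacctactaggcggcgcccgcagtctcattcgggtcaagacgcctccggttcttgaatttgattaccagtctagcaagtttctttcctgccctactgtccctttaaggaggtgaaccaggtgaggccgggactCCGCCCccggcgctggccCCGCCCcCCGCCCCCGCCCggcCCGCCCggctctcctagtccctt
EFNA1: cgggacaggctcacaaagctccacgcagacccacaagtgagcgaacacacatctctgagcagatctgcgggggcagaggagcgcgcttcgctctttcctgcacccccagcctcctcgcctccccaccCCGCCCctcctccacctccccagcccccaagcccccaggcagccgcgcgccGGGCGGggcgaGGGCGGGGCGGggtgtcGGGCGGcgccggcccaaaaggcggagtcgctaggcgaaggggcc
The EPHA2 stretch held 1 CRE, which began at −51 from the start and was found in 1.65% of all 35116 promoters of that length, with both strands searched. It also held 1 GC box (−64) and 1 match to the letters GCGTG, the core of the xenobiotic response element bound by the aryl hydrocarbon receptor (−45), which overlapped the end of the CRE. These 2 motifs were common, in 42.6% and 32.2% of all promoters. Matches to GCGTG lay in windows of 7 of the 9 members, that of EFNA1 among them (−229). This count was not tested against the share of all promoters. The members' windows were 43.2 to 84.8% G and C, against a median of 58.0% for all promoters, and EPHA4 and EPHB2 had 2 windows each. The EPHA1 and EFNA1 stretches held 5 GC boxes each and no CRE. Each also held 1 match to the EGR1 motif (GCGNGGGCG, at −37 and −65), found in 8.41% of all promoters and not in the EPHA2 stretch. The motif of AP-1 (TGANTCA), found in 6.57% of all promoters, had no match in these windows of any member. A match is a string of letters and not a measured site.

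Levels were read as TPM, the abundance of a gene's transcripts per length, scaled to one total per library, so they can be compared between genes. In Ctrl cells EPHA2 and EFNA1 stood above the rest of the family. At 6 h EFNA1 was at 88.4 ± 12.4 TPM (SD, n = 4) and EPHA2 at 48.8 ± 8.05 TPM, with no overlap between the libraries of both genes. They were followed by EPHB4 (18.5 ± 0.511 TPM) and EPHA1 (16.1 ± 3.02 TPM), whose libraries overlapped. EPHB2 (8.66 TPM), EFNB2 (6.68 TPM) and EPHB3 (5.60 TPM) came lower, and EFNB1 (1.67 TPM) and EPHA4 (0.867 TPM) were close to the floor of 1 TPM used for testing. At 3 h the order began with EPHA2 (89.6 ± 42.6 TPM, SD, n = 4) and EFNA1 (70.8 ± 14.1 TPM), which overlapped, and again ended with EFNB1 and EPHA4. EPHA2 alone gave 44.3 to 52.3% of the TPM of all listed Eph receptors in the Ctrl libraries at 6 h, and EFNA1 gave 69.8 to 73.9% of that of all listed ephrins.

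**Figure D1:**
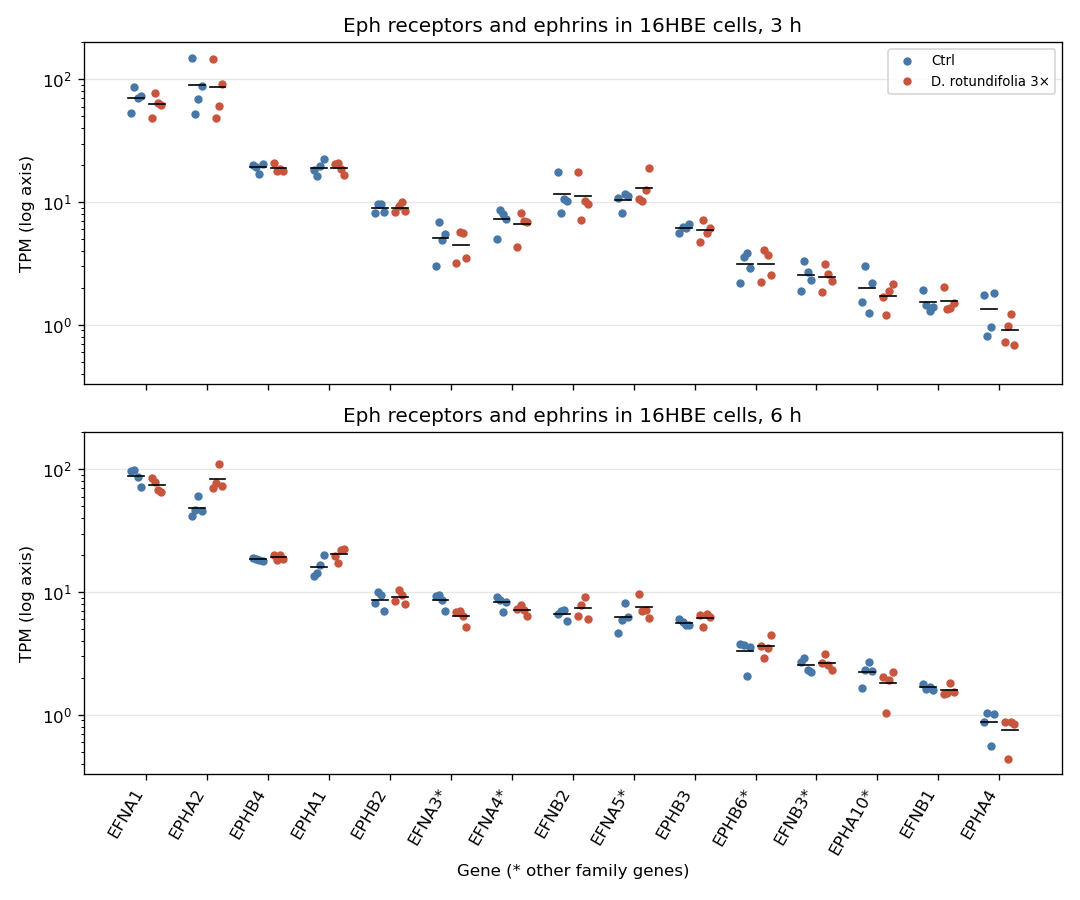
TPM on a log axis of the 9 members and of the 6 other listed family genes (starred) in each library at 3 h (top) and 6 h (bottom), with Ctrl in blue, D. rotundifolia 3× in red and a black bar at each mean of 4 libraries. EFNA1 and EPHA2 lead at both times, and at 6 h the EPHA2 libraries of the treated group (70.3 to 110.5 TPM) lie above those of Ctrl (42.0 to 60.4 TPM).

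Of the genome's 13 other family genes, 6 were listed: the receptors EPHA10 and EPHB6, the latter without kinase activity, and the ligands EFNA3, EFNA4, EFNA5 and EFNB3. Their Ctrl means at 6 h ran from 2.22 TPM (EPHA10) to 8.56 TPM (EFNA3). EPHA3, EPHA5, EPHA6, EPHA7, EPHA8, EPHB1 and EFNA2 had no value in the tables used here.

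The libraries carried markers of a simple epithelium. The summed level of 5 simple epithelial markers (KRT8, KRT18, KRT19, EPCAM and CDH1) ran from 8345 to 12000 TPM over the 16 libraries. Of the basal markers, KRT17 (254 to 452 TPM) and KRT5 (36.1 to 82.1 TPM) were present and KRT14 was low (1.47 to 3.67 TPM). TP63, which defines basal cells, stayed at or below 0.172 TPM, and the secretory markers SCGB1A1, MUC5AC and MUC5B were not listed. Since EFNB2 and EPHB4 are also known from blood vessels, endothelial markers were read as well. Their sum was 2.89 to 5.61 TPM, of which CDH5 gave 1.89 to 4.85 TPM and KDR 0.414 to 0.955 TPM, while PECAM1 stayed at or below 0.199 TPM. The TPM of each library added up to 999180 to 999299 at 3 h and to 997870 to 998396 at 6 h, and 12764 to 14239 symbols reached 1 TPM in a library. The number of reads behind each library is unknown from these values, and the mean normalized count of the authors, 7491 for EPHA2 at 3 h against 62.9 for EPHA4 at 6 h, gives the relative depth of the members. Bulk RNA cannot tell fewer cells of a type from less RNA per cell.

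The comparison of D. rotundifolia 3× with Ctrl asked how the preparation changed the transcriptome of these cells. EPHA2 was the member that differed most. At 6 h it was 1.70 times as high in treated as in Ctrl cells, above every Ctrl library in each treated library, and at 3 h its mean was 0.969 times that of Ctrl. EFNA1, its ligand, was lower in each treated library than in the Ctrl library of the same number at both times. Its mean in treated cells was 0.844 times that of Ctrl at 6 h and 0.886 times at 3 h. Without a term for the replicate number, none of the members passed an adjusted p of 0.05. With the number as a block, EPHA2 was called higher at 6 h. That call took same-numbered libraries as pairs, not all of which passed the check of pairing described below, and it ended with any pair left out.

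Across all symbols tested at 6 h, limma's moderated test (two-sided, on log2(TPM + 1), Benjamini-Hochberg) called 0.113% higher and 0% lower with D. rotundifolia 3×. Among the 8 members tested it called 0, and 2 (EPHA2 and EPHA1) had an unadjusted p under 0.05, as had 8.03% of all symbols. With the replicate block it called 0.268% of all symbols higher and 0.0141% lower, and 1 member, EPHA2. At 3 h it called 0% in either direction, none of the 9 members had an unadjusted p under 0.05, against 2.41% of all symbols, and with the block 0.00774% were called higher, 0% lower and no member. The members' median log2 difference was 0.09 at 6 h, against 0.0052 over all symbols, and −0.06 at 3 h, against 0.015.

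**Figure D2:**
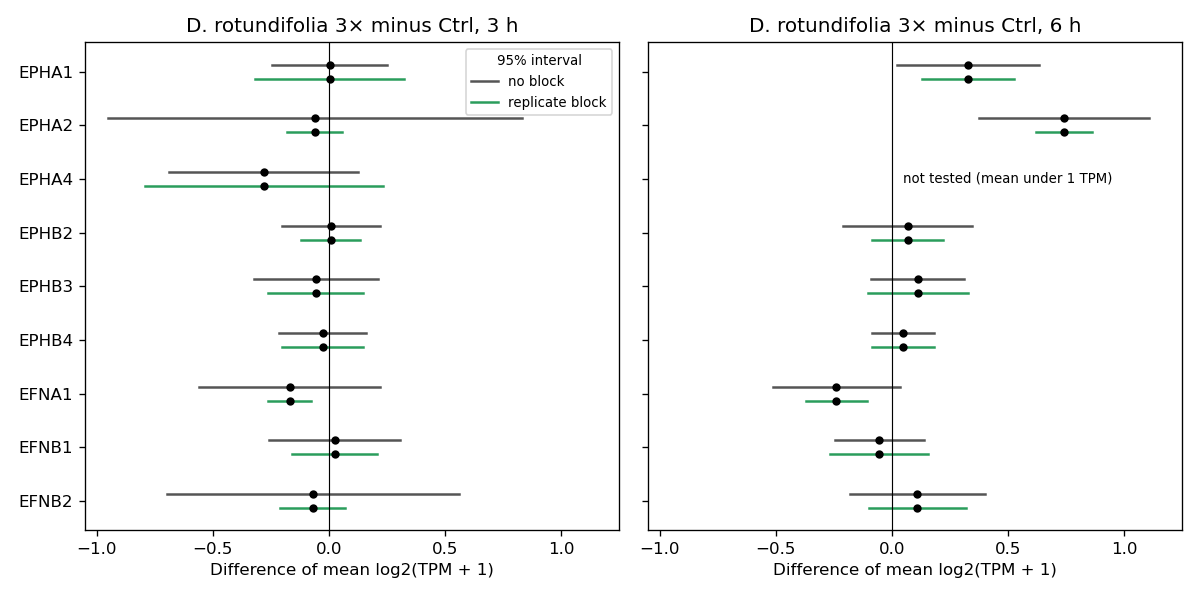
Difference of mean log2(TPM + 1) between D. rotundifolia 3× and Ctrl for each member at 3 h (left) and 6 h (right), with points at the estimate and lines for its 95% interval from limma without a block (grey) and with the replicate number as a block (green), n = 4 libraries per group. EPHA2 at 6 h (0.74) lies farthest from 0, and at 3 h the block narrows its interval from −0.95 to 0.83 to between −0.18 and 0.058.

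EPHA2 (ENSG00000142627, chr1:16124337-16156069, minus strand) had the largest difference among the members tested at 6 h. Ctrl replicates 1 to 4 stood at 42.0, 46.7, 60.4 and 45.8 TPM. The D. rotundifolia 3× replicates stood at 70.3, 77.8, 110.5 and 73.0 TPM. The groups did not overlap, and replicate 3 was the highest in both. Every treated library above every Ctrl library was found for 3.43% of all symbols, and among the members for EPHA2 alone. The log2 difference was 0.74 (SE 0.16, 95% interval 0.38 to 1.11), with an unadjusted limma p of 0.00144 and an adjusted p of 0.200. Within pairs of the same number it was 0.73, 0.72, 0.86 and 0.66, and with the block its SE was 0.047 and its adjusted p in limma was 0.0340. That call rested on all 4 pairs: with any of them left out the difference stayed between 0.70 and 0.77 on the log2 scale but the adjusted p with the block was 0.0856 to 0.201. The pairs of replicates 1 and 2 did not pass the check of pairing at 6 h (correlations of 0.0564 and 0.0973, bound 0.1). EPHA2 was also the single member whose difference passed 0.4 on the log2 scale, which 729 of 14179 symbols passed. The study set that limit at 6 h on DESeq2 log2 fold changes that it had shrunk, for genes that also passed its adjusted p. The measure here is another, so passing 0.4 does not meet the criterion of the study.

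At 3 h EPHA2 showed a spread between replicates and little between groups. Ctrl replicates 1 to 4 stood at 149.6, 52.0, 68.7 and 88.2 TPM, and the treated ones at 146, 48.5, 61.2 and 92.2 TPM. Replicate 1 was the highest and replicate 2 the lowest in both groups, and the groups overlapped almost fully. The log2 difference was −0.06 (SE 0.39), with a limma adjusted p of 1.00. With the block the SE was 0.047 and the interval ran from −0.18 to 0.058, so a difference at 3 h as large as that at 6 h lay outside it.

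Whether the difference for EPHA2 itself differed between times was tested as an interaction over the 16 libraries. It was larger at 6 h than at 3 h by 0.80 on the log2 scale (SE 0.45, limma adjusted p = 0.999), and limma called 0.00792% of all symbols. Without the block this value moved to 0.52 when Ctrl replicate 1 of 3 h was left out and to 1.09 when treated replicate 1 of 3 h was left out. With the replicate number as a block within each time the same value had an SE of 0.066, an interval of 0.65 to 0.95 and an adjusted p of 0.00638, and 0.254% of all symbols were called. With each of the 8 pairs left out in turn the adjusted p with the block stayed between 0.0128 and 0.0462, so this call did not rest on a single pair. It was the single member called in that fit. The blocked fit again took the 6 h libraries as pairs, not all of which passed the check of pairing. Time and experiment cannot be told apart here.

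**Figure D3:**
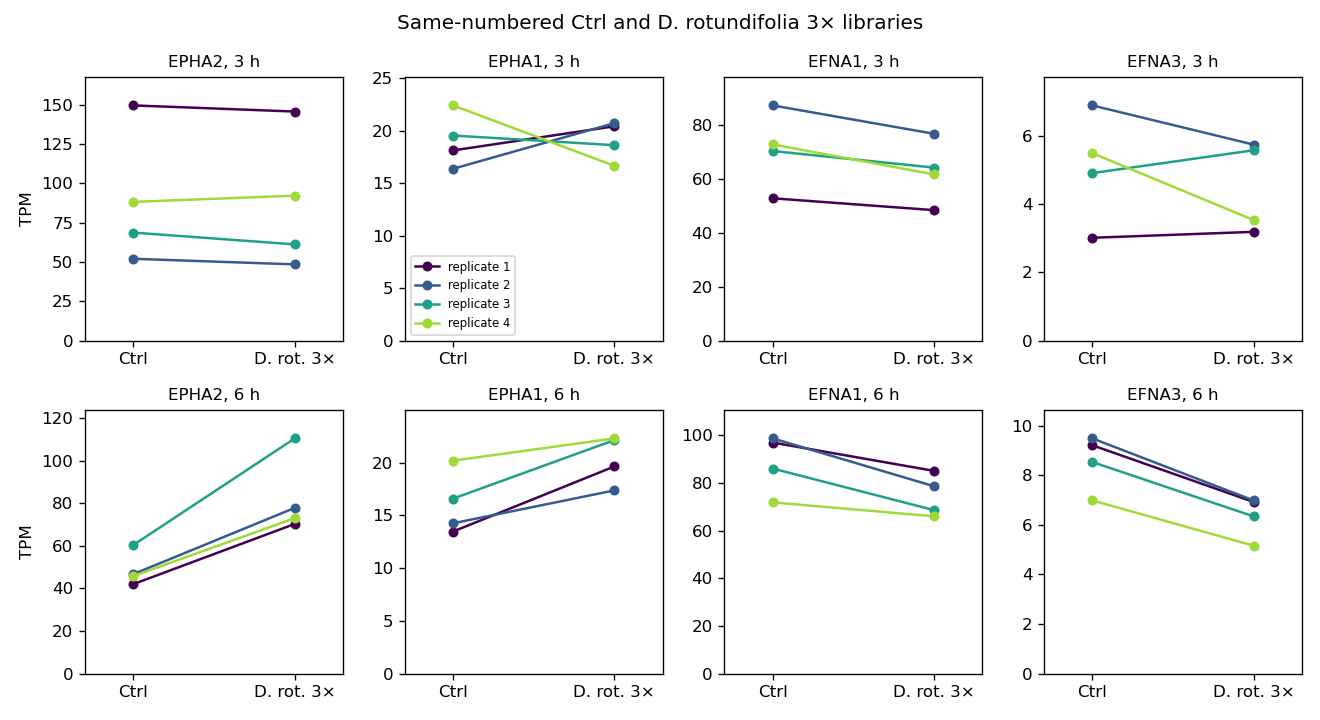
TPM (axes from 0) of EPHA2, EPHA1, EFNA1 and EFNA3 in Ctrl and D. rotundifolia 3× libraries at 3 h (top) and 6 h (bottom), with a line joining libraries of the same replicate number. The EPHA2 lines are nearly level at 3 h and all rise at 6 h, by ratios of 1.59 to 1.83, and the EFNA1 lines slope down at both times.

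EPHA1 (ENSG00000146904, chr7:143390289-143408856, minus strand), the other EphA receptor with a level above 10 TPM, leaned the same way at 6 h. Its Ctrl replicates stood at 13.5, 14.3, 16.6 and 20.2 TPM and the treated ones at 19.6, 17.4, 22.1 and 22.3 TPM. Each treated library was above the Ctrl library of its number, but the groups overlapped, as Ctrl replicate 4 exceeded treated replicates 1 and 2. The log2 difference was 0.33 (SE 0.13, unadjusted p = 0.0374, limma adjusted p = 0.591), and the adjusted p with the block was 0.217. At 3 h the Ctrl libraries lay at 16.4 to 22.4 TPM and the treated ones at 16.7 to 20.7 TPM, with a log2 difference of 0.0032 (SE 0.11). EPHA1 overlaps ZYX, a focal adhesion gene on the opposite strand, whose 6 h levels were 64.5 to 76.9 TPM in Ctrl and 84.6 to 109 TPM in treated libraries. The libraries keep the strand of the RNA and were quantified with strand, and the part of ZYX in the EPHA1 value was not tested.

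The EphB receptors, which mainly take B-class ephrins, differed less. EPHB2 at 6 h was at 8.10, 10.1, 9.45 and 7.04 TPM in Ctrl and at 8.46, 10.4, 9.52 and 8.004 TPM in treated libraries. It was higher in all 4 pairs at 6 h by 1.01 to 1.14 times, and with EPHA1 and EPHA2 it made 3 of the 8 members tested that were, against 13.1% of all symbols. Its log2 difference was nevertheless within the spread between replicates (0.068, SE 0.12, limma adjusted p = 0.919). EPHB3 lay at 5.37 to 5.99 TPM in Ctrl and 5.21 to 6.66 TPM in treated libraries at 6 h, with a log2 difference of 0.11 (95% interval −0.089 to 0.31). EPHB4 lay at 17.8 to 19.0 and 18.1 to 19.9 TPM, with a difference of 0.048 (−0.084 to 0.18), the narrowest interval among the members at 6 h. At 3 h the differences of these 3 receptors lay between −0.06 and 0.0085 on the log2 scale, and none was higher or lower in all 4 pairs. Being higher in 4 of 4 pairs was found for 9.57% of all symbols at 3 h and for none of the members.

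EPHA4, a receptor that binds ephrins of both classes, was near the floor. At 3 h it was at 1.74, 0.815, 0.956 and 1.83 TPM in Ctrl and at 0.722, 0.972, 1.218 and 0.679 TPM in treated libraries. These groups overlapped, with 2 of 4 pairs higher and 2 lower (log2 difference −0.28, SE 0.18, limma adjusted p = 1.00). The value was −0.48 with a pseudocount of 0.1 and −0.39 to −0.18 with 1 library left out. At 6 h its mean was under 1 TPM and it was not tested, with 0.555 to 1.02 TPM in Ctrl and 0.439 to 0.875 TPM in treated libraries.

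EFNA1 (ENSG00000169242, chr1:155127876-155134899, plus strand), the A-class ligand, leaned lower at both times. This was against EPHA2 at 6 h only, since at 3 h the log2 difference of EPHA2 was also below 0 (−0.06). At 6 h the Ctrl replicates stood at 96.9, 98.6, 86.0 and 71.8 TPM and the treated ones at 85.0, 78.6, 68.6 and 66.0 TPM. At 3 h they stood at 52.8, 87.3, 70.4 and 72.8 TPM in Ctrl and at 48.4, 76.8, 64.2 and 61.7 TPM in treated cells. Treated libraries were thus lower in 4 of 4 pairs at each time while the groups overlapped. Being lower in 4 of 4 pairs was found for 9.94% of all symbols at 6 h, and EFNA1 was the single member there. At 3 h it was found for 5.95%, and for the 2 members EFNA1 and EFNB2. The log2 difference of EFNA1 was −0.24 at 6 h (SE 0.12, limma adjusted p = 0.665) and −0.17 at 3 h (SE 0.17, limma adjusted p = 1.00). With 1 library left out the value at 3 h ran from −0.30 (without Ctrl replicate 1) to −0.052 (without treated replicate 1). With the block it did not pass either, at adjusted p = 0.203 and 0.583 by limma, with intervals of −0.37 to −0.11 and −0.26 to −0.076. The difference at 6 h minus that at 3 h was −0.07 (95% interval −0.21 to 0.070 with the block, limma adjusted p = 0.716).

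The B-class ligands did not differ beyond their spread. EFNB2, known as a ligand of EPHB4 in vessels, was at 3 h at 17.5, 8.21, 10.5 and 10.2 TPM in Ctrl and at 17.5, 7.14, 10.3 and 9.64 TPM in treated libraries, and replicate 1 was the highest in both groups, as for EPHA2. At 6 h it was at 6.64, 7.07, 7.17 and 5.84 TPM in Ctrl and at 6.38, 7.89, 9.10 and 6.05 TPM in treated libraries. The log2 difference was −0.07 at 3 h (SE 0.28) and 0.11 at 6 h (SE 0.13), with limma adjusted p = 1.00 and 0.867. EFNB1, a membrane-spanning ephrin encoded on the X chromosome, stayed between 1.296 and 2.01 TPM in all 16 libraries, with differences of 0.025 and −0.054 on the log2 scale at 3 h and 6 h.

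EPHA2 and EFNA1 can be read against each other, since both are in TPM. The level of EPHA2 per level of EFNA1 was 0.434 to 0.703 in the Ctrl libraries at 6 h and 0.827 to 1.61 in the treated ones, without overlap. This ratio and the share of EPHA2 below are drawn from the EPHA2 values already given and are no separate finding. At 3 h it was 0.596 to 2.83 in Ctrl and 0.631 to 3.01 in treated libraries, and the highest value of each group came from replicate 1. The share of EPHA2 in all receptor TPM at 6 h was 44.3 to 52.3% in Ctrl and 53.5 to 63.1% in treated libraries. The summed level of the other listed receptors was 52.9 to 57.3 TPM in Ctrl and 55.5 to 64.6 TPM in treated cells. EFNA1 gave 66.8 to 71.2% of the ephrin TPM in the treated libraries, which overlapped with Ctrl.

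**Figure D4:**
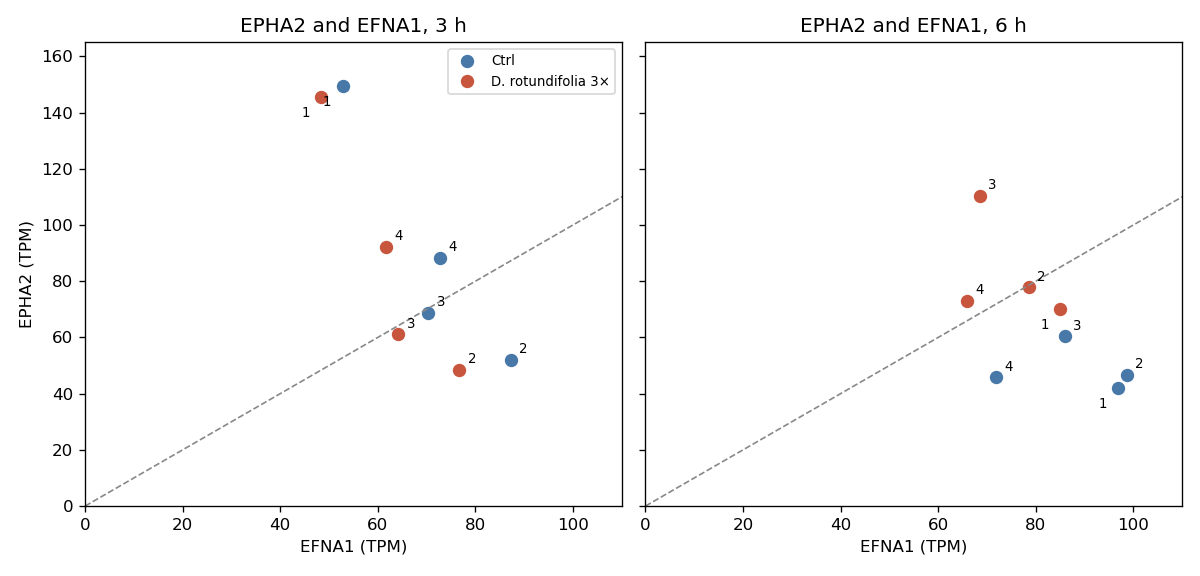
EPHA2 against EFNA1 in TPM for each library at 3 h (left) and 6 h (right), Ctrl in blue and D. rotundifolia 3× in red, numbered by replicate, with a dashed line where both levels are equal. At 6 h all 4 Ctrl libraries lie below the line (ratio of 0.434 to 0.703) and the treated ones lie higher (0.827 to 1.61), and at 3 h replicate 1 of both groups lies far above it.

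Variation over the libraries, with the difference between treated and Ctrl cells left in, had a direction within the family. Over the 16 libraries, with the mean of each time removed, log2(TPM + 1) of EPHA2 correlated with that of EFNB2 at r = 0.84 and with that of EFNA1 at r = −0.79, the highest and the lowest of its 8 values with other members. EFNB1 and EFNB2 correlated at r = 0.81. These points share libraries, replicate number and treatment, so the values are descriptions. At 3 h replicate 1 had the highest EPHA2, EFNB1 and EFNB2 and the lowest EFNA1, EPHB2 and EPHB3 in both groups.

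Outside the family, the genes with the pattern most like EPHA2 by the same measure, among 8067 averaging 10 TPM or more, were AEN (r = 0.98), an exonuclease gene known as a p53 target, YRDC (0.98), which acts in tRNA modification, and THBS1 (0.97), which encodes thrombospondin 1. Those most like EFNB2 were IFFO2 (0.96), IRF2BP2 (0.96) and the transcription factor ETS1 (0.96). Those most like EFNA1 were TSTD1 (0.96), C6orf62 (0.92) and SSC4D (0.92). EPHB2 was most like TMBIM1 (0.90), EFNB1 most like JPT1 (0.89) and EPHA1 most like TRMT61B (0.87). For EPHB3 the leading gene was NHLRC3 (0.82), for EPHB4 ECD (0.81), and for EPHA4 AC091042.1 (0.77).

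The other ephrins were read beside EFNA1. EFNA3, a lipid-anchored ephrin, lies 40337 bases from EFNA1 on chromosome 1, and EFNA4 lies 9283 bases from EFNA3. EFNA3 at 6 h was at 9.22, 9.49, 8.54 and 6.99 TPM in Ctrl and at 6.93, 6.99, 6.34 and 5.16 TPM in treated libraries. Every treated library was below every Ctrl library, though the highest treated and the lowest Ctrl library nearly touched, as was so for 1.65% of all symbols, and for none of the members. The log2 difference of EFNA3 was −0.38 (SE 0.12, limma adjusted p = 0.461, and 0.122 with the block), and at 3 h 2 of 4 pairs were lower. EFNA4 was at 6.83 to 9.19 TPM in Ctrl and 6.38 to 7.83 TPM in treated libraries at 6 h (−0.18, SE 0.10). The annotation also holds a readthrough transcript across EFNA4 and EFNA3, so their levels are uncertain where reads could belong to it. None of the 6 other family genes passed the test at either time, which at most 0.113% of all symbols passed in a direction. At 3 h no family gene lay wholly above or below Ctrl, as 1.02% and 0.503% of all symbols did.

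The proteins that act with Eph receptors and ephrins were read as 4 lists of 63 genes in all, of which 61 were tested at each time. None was called by limma in either direction at 3 h or 6 h, with or without the block. Over all symbols the share called in a direction was at most 0.268%, so the absence of calls does not set the partners apart. At 6 h 7 had an unadjusted p under 0.05, against 8.03% of all symbols, and at 3 h none had. The median log2 difference of the 61 was −0.019 at 6 h, against 0.0052 over all symbols, and 0.024 at 3 h, against 0.015.

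The 4 partners with the smallest p at 6 h were MMP14, ARHGEF16, PARD6B and KALRN. MMP14, a membrane metalloprotease known to cleave EPHA2, was at 69.9 to 73.1 TPM in Ctrl and at 79.4 to 84.7 TPM in treated libraries, without overlap. Its log2 difference was 0.18 (SE 0.044, limma adjusted p = 0.274). ARHGEF16, an exchange factor that binds EPHA2, was at 11.6 to 12.8 and 13.8 to 15.8 TPM, also without overlap (0.22, SE 0.066, limma adjusted p = 0.434). PARD6B, a polarity protein of the Par6 family, known to bind a B-class ephrin in frog embryos, was at 7.09 to 8.79 and 9.12 to 10.5 TPM (0.25, SE 0.081, limma adjusted p = 0.470). Its groups did not overlap either. Of the 61 partners tested at 6 h, 3 lay wholly above Ctrl and 1 wholly below, against 3.43% and 1.65% of all symbols. KALRN, an exchange factor for Rac known to act with EphB2 in rodent neurons, was lower in all 4 pairs but overlapped (−0.29, SE 0.10, limma adjusted p = 0.521). At 3 h the 4 with the smallest p were GRIP1, ITSN1, PTPRJ and ARHGEF16, all with groups that overlapped and a limma adjusted p of 1.00. The 5 kinases of the EPHA2 serine site had a higher mean in treated cells in 5 of 5 at 6 h and in 3 of 5 at 3 h. Their medians were 0.069 and 0.0056 on the log2 scale, against 0.0052 and 0.015 over all symbols. None was called or had an unadjusted limma p under 0.05, and the groups of each overlapped.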

How the data were processed

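RNA of 16HBE cells was measured in 16 libraries, grouped by time and treatment from the deposited labels. The authors made stranded poly(A) libraries, quantified single-end reads with Salmon 0.13.1 against GENCODE 32 (GRCh38.p13) with its strand setting and GC-bias correction, summed transcripts to genes, removed genes with few reads and compared groups with DESeq2 1.22.2. The authors deposited TPM per gene and library for each time, beside a signal, their mean normalized count over the libraries of a time, which was used to show depth. The deposited columns of their own comparison (log2 fold changes, errors, statistics and p-values) were not used. Per-library counts were not analysed here, so neither a count model nor a counting interval is given. TPM keeps no depth.

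TPM was summed over the gene IDs of a symbol. At 6 h, 89 repeated gene IDs were left out (84 with identical TPM), and 5 symbols per table turned into dates were kept as gene IDs. limma 3.58.1 in R 4.3.3 was fitted with a trend on log2(TPM + 1), for symbols averaging 1 TPM or more in the libraries fitted (12919 at 3 h, 14179 at 6 h, 12623 for the difference between times), each time alone, with Benjamini-Hochberg adjustment over all symbols tested and a threshold of 0.05. The values given first come from fits without a block, since the methods of the study name none, and the blocked fit is an alternative at both times. Alternatives were another pseudocount, other filters, median-ratio scaling, gene IDs singly, the replicate block and each library left out. Leaving out both libraries of replicate 1, and each pair under the block, was chosen after seeing the data.

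Pairing was checked by the correlation of same-numbered libraries once each group's mean was taken out, and 0.1 was the bound. At 3 h the 4 values were 0.469, 0.255, 0.219 and 0.187, all above the bound, so the numbers mark pairs by this check. At 6 h they were 0.0564, 0.0973, 0.158 and 0.204, so 2 of 4 passed. There Ctrl replicate 1 and treated replicate 2 correlated most with each other and not with the library of their own number. The other libraries of 6 h correlated most with that of their own number. The study ran Ctrl wells in the same plates and treated the experiments of that series as paired in its qPCR, without tying the library numbers to experiments. Blocked values at 6 h, and for the difference between times, are given beside the unblocked ones with that limit. The study calls the replicates biological.

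All 9 members are named, with the other family genes, up to 4 partners per time with the smallest p, and for each member the 3 symbols of the most similar pattern, of which the first is given where not all are. Members and lists were chosen with earlier results of these data known. Promoters and motifs are from RefSeq (GRCh38.p14), in which all 9 members matched, and gene coordinates from GENCODE 44 (GRCh38). Tables and figures used Python 3.11.15, pandas 2.3.3, numpy 2.4.6 and matplotlib 3.10.9.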

Additional observations from a re-analysis of the deposited data

Results flagged for a closer look

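The level of EPHA4 in treated replicate 2 at 6 h, 0.439 TPM, lay apart from the other 3 treated libraries (0.846 to 0.875 TPM). The level of EFNB1 in treated replicate 3 at 6 h, 1.81 TPM, lay apart from the others (1.46 to 1.52 TPM). Both are near 1 TPM. These were 2 of 36 groups of 4 libraries examined, and chance sets about 1 in 20 groups apart in this way.

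The difference of EPHA2 between treated and Ctrl cells was larger at 6 h than at 3 h by 0.80 on the log2 scale, and it passed limma's test of the difference itself with the replicate block and not without it.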

How the results depend on the processing

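Of the 25 differences of members, 13 kept their sign under every alternative run, among them EPHA2 and EFNA1 at 6 h. With the replicate block, which takes same-numbered libraries as pairs, 1 member was called at 6 h and 1 for the difference between times (EPHA2 both times, 0.74 and 0.80), and calls over all symbols at 6 h went from 16 to 38 higher and 2 lower, and for the difference from 1 to 32. It changed no other member's call. Leaving out any pair under the block kept the call of 1 member for the difference between times and ended that at 6 h. Without a filter 7 symbols were called at 6 h, and with 1 library left out the number called higher ran from 4 (without treated replicate 2 or 3) to 44 (without treated replicate 1, with 3 lower). Median-ratio scaling turned EPHA1 (−0.014) and EPHB2 (−0.0082) at 3 h, and leaving out both libraries of replicate 1 turned EPHA1 at 3 h (−0.050). Under the block, 3 h values turned with 1 pair left out for EPHA1 (−0.050 without pair 1, −0.10 without pair 2), EPHB2 (−0.0040 without pair 3) and EPHB4 (0.030 without pair 4). With 1 library left out, the 3 h differences ran from −0.064 to 0.079 (EPHA1), −0.35 to 0.22 (EPHA2), −0.039 to 0.044 (EPHB2), −0.14 to 0.033 (EPHB3), −0.080 to 0.0062 (EPHB4), −0.055 to 0.099 (EFNB1) and −0.29 to 0.13 (EFNB2), that of EPHB2 at 6 h from −0.017 to 0.14, that of EPHA2 at 6 h from 0.60 to 0.85 (lowest adjusted p 0.158), that of EFNA1 at 3 h from −0.30 to −0.052, that of EPHA4 at 3 h from −0.39 to −0.18 (−0.48 with a pseudocount of 0.1), and the difference between times from 0.52 to 1.09 (EPHA2), −0.025 to 0.13 (EPHB2), −0.19 to 0.061 (EFNA1), −0.15 to 0.0015 (EFNB1) and −0.021 to 0.40 (EFNB2). The cause was not tested.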
